A study of Mus musculus with 9 samples.

Results

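The nuclear-encoded subunits of the mitochondrial respiratory chain and of ATP synthase were followed in CD11b+ cells of mouse spleen. The rule that picks the members reads gene symbols only. A probe set belonged to the set if the platform annotation gave it a single symbol that starts with Nduf, Uqcr or Atp5, or with Cox followed by a digit from 4 to 8, or that is Sdha, Sdhb, Sdhc, Sdhd, Cyc1 or Cycs. This rule found 101 probe sets for 73 genes, of 12488 probe sets on the array and 8252 genes with a symbol. By complex these were 31 genes of complex I, 4 of complex II, 8 of complex III, cytochrome c, 15 of complex IV and 14 of ATP synthase, which is complex V. The Nduf prefix also takes in Ndufaf1 and Ndufaf4, which are complex I assembly factors rather than subunits. Of the 101 probe sets, 83 passed the filter on low signal and were tested, and they cover 69 genes. The remaining 18 were dim, and for Ndufs4, Cox7a1, Cox8a and Atp5k no probe set was tested.

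CD11b is integrin alpha M, a surface protein of neutrophils, monocytes and macrophages. Female mice of 8 to 12 weeks gave the spleens, and RNA of the sorted cells was measured on 9 arrays (Affymetrix MG-U74Av2) in 3 groups of 3. The groups were CD11b+ cells from tumor-free mice, CD11b+ cells from mice that carried a tumor and were not cultured (time 0, called fresh here), and CD11b+ cells from mice that carried a tumor and were kept for 24 h in complete medium (called cultured here). Neither the tumor, the mouse strain nor the culture supplements are named in the labels, and no tumor-free cells were cultured. The labels do not say whether each replicate is a mouse of its own, so p-values measure the spread between these arrays, which may be technical. Fold changes are log2 differences between group means and are given for 3 comparisons, always in the same order: fresh minus tumor-free, cultured minus fresh, and cultured minus tumor-free. These comparisons share arrays in pairs, so agreement between them is not independent.

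The respiratory chain sits in the inner mitochondrial membrane. Complex I takes electrons from NADH and complex II takes them from succinate, complex III passes them on to cytochrome c, and complex IV delivers them to oxygen. Complexes I, III and IV move protons across the membrane, and ATP synthase lets these protons flow back to make ATP. Most subunits are encoded in the nucleus, as are all members here, and a few core subunits are encoded in mitochondrial DNA. Mature neutrophils are known for few mitochondria and reliance on glycolysis, whereas many tissue macrophages depend more on oxidative phosphorylation.

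Many promoters of these genes are known to be bound by the transcription factors NRF1, GABP (also called NRF2) and YY1. In the RefSeq promoters of mouse build GRCm38.p6, 59 of the 73 genes had at least 1 window of 300 bases (250 before the start of transcription and 50 after it), which gave 64 windows. Both strands were searched for the letters GCGCA, any base and GCGC in a row for NRF1, CCGGAAG for GABP and AANATGGCG for YY1. The NRF1 letters stood in 20.3% of the member windows, against 9.49% of the windows of genes tested on the array and 4.60% of all windows. For GABP the shares were 25%, 16.1% and 8.86%, and for YY1 they were 10.9%, 4.66% and 2.38%. At least 1 of the motifs stood in 32 of the 64 member windows, or 50%, against 26.7% and 14.2%, and in 0 of the member windows did matches of different motifs overlap. The 250 bases upstream of a start are shown for 4 members. Atp5pb and Uqcr11 are shown because they had the highest and the lowest fold change of all members between fresh and tumor-free cells, and Atp5c1 and Ndufb11 because each holds a match to another motif. All 4 lie on the minus strand and are written 5′ to 3′ toward the start, with a motif match in capitals. The windows are chr3:105959264-105959513 for Atp5pb (no match), chr10:80406822-80407071 for Uqcr11 (GABP), chr2:10080433-10080682 for a start of Atp5c1 (NRF1) and chrX:20617620-20617869 for the X-linked Ndufb11 (YY1). A match is a description of these letters and not evidence of binding.
Atp5pb: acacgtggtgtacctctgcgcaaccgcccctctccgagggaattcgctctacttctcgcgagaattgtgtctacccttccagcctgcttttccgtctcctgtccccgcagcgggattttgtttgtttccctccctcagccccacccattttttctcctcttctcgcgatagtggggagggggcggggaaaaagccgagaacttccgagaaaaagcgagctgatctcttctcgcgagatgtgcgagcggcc
Uqcr11: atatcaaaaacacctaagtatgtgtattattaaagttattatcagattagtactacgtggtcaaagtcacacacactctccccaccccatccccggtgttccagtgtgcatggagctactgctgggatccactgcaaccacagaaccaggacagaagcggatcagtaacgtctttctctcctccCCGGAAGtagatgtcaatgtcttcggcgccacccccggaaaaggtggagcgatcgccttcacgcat
Atp5c1: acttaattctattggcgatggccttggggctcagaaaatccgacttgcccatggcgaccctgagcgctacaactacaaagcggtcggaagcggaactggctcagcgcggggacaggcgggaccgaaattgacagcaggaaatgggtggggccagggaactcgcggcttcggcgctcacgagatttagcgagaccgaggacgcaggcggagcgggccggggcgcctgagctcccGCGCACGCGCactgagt
Ndufb11: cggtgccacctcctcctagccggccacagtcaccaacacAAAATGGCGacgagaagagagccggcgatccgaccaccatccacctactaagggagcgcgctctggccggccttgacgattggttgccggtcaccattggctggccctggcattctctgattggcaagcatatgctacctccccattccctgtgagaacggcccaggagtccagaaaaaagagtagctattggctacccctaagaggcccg

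Arrays were deposited as MAS5 signals scaled to a common level, with medians of 33.4 to 42.8 per array. All 11 CD11b+ myeloid markers on the list had a tested probe set, and Itgam, the gene of CD11b itself, gave a signal between 244 and 954 on every array. By limma 1 of the 11 was called lower in fresh and 1 in cultured against tumor-free cells, with a background of 0.955% and 0.644% lower. No marker on this list was called higher, and 0 were called between cultured and fresh cells. Tumor-free 1, fresh 3 and cultured 3 stood apart from the other pair of their group: their best correlation over probe sets with an array of the same group was 0.827, 0.900 and 0.869, against 0.957, 0.949 and 0.929 within the other pairs, so results are also given without them. The arrays were also split at the median of their mean log2 signal of bacterial spike-in controls into a high class (tumor-free 1, fresh 1 and 2, cultured 1 and 2; 9.864 to 10.497) and a low class (8.99 to 9.77). No clear gap separates these classes, and each holds at least 1 group with a single array. The ratio of the 3' to the 5' actin probe set, a sign of RNA quality, was 1.58 to 2.57 in the high class and 0.994 to 1.35 in the low class. Markers of cell types also moved with the groups: between fresh and tumor-free cells limma called 11 of 12 pancreas acinar genes higher, 5 of 10 macrophage genes lower and 0 of 14 neutrophil genes higher and 1 lower, although 12 of the 14 had a positive fold change. Of 7 tested erythroid genes 0 were called, with 3 at an unadjusted p below 0.05, and all 7 had a positive fold change; the summed signal of this list was 5627 to 6990 on fresh, 1059 to 2863 on tumor-free and 1567 to 7747 on cultured arrays. The summed signal of 12 pancreas acinar genes was 13188 to 22187 on fresh arrays against 539 to 795 on tumor-free and 472 to 1117 on cultured arrays, that of 10 macrophage genes was 2524 to 3146 on fresh and 3662 to 4788 on cultured against 6072 to 16938 on tumor-free arrays, and that of 14 neutrophil genes was 56844 to 69636 on fresh against 36262 to 49764 on tumor-free arrays and 16498 to 49183 on cultured arrays. Among the defining markers Prss2 had a mean signal of 1635 on fresh and 22.1 on tumor-free arrays. The part of these markers, of the spike-in class and of RNA quality in the members' values was not tested, and in such bulk samples fewer cells of a type and less RNA per cell cannot be told apart.

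For the respiratory chain and ATP synthase genes, fold changes between the groups were mostly small and none was called. No member probe set passed the threshold (limma, Benjamini-Hochberg adjusted p below 0.05 over all 8695 probe sets tested) in any of the 3 comparisons, so 0 of 83 were called in each. The background was 1.9% of probe sets called between fresh and tumor-free cells (0.943% higher and 0.955% lower), 2.69% between cultured and fresh cells (1.52% higher and 1.17% lower) and 1.23% between cultured and tumor-free cells (0.587% higher and 0.644% lower). Without adjustment, 9, 6 and 5 member probe sets had p below 0.05, or 10.8%, 7.23% and 6.02%, against 16.7%, 16.3% and 14.1% of all probe sets tested. Of these, 2, 4 and 2 were higher, against a background of 7%, 10.1% and 7.28%, and 7, 2 and 3 were lower, against 9.66%, 6.19% and 6.82%. The lowest limma adjusted p of a member was 0.0783, 0.132 and 0.0900 in the 3 comparisons.

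Member fold changes were also smaller in size than those of other genes. Their median size was 0.24, 0.25 and 0.21 on the log2 scale, against 0.38, 0.35 and 0.33 over the 6371 genes tested. A fold change of more than 1 in size was seen for 2, 0 and 2 of the 69 member genes, or 2.90%, 0% and 2.90%, against 11.9%, 11.6% and 9.84% of all genes tested. Members were brighter (median log2 signal 7.64 against 6.49) and varied less within groups (median residual SD 0.32 against 0.42), and the part of either in the smaller fold changes was not tested. The precision bounds what can be said of single genes: the 95% interval lay wholly between -1 and 1 for 43, 45 and 47 of the 69 member genes, against 33.3%, 36.2% and 37.7% of all genes tested. For the remaining 26, 24 and 22 member genes a change of 1 or more on the log2 scale in at least 1 direction lay inside the interval.

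**Figure D1:**
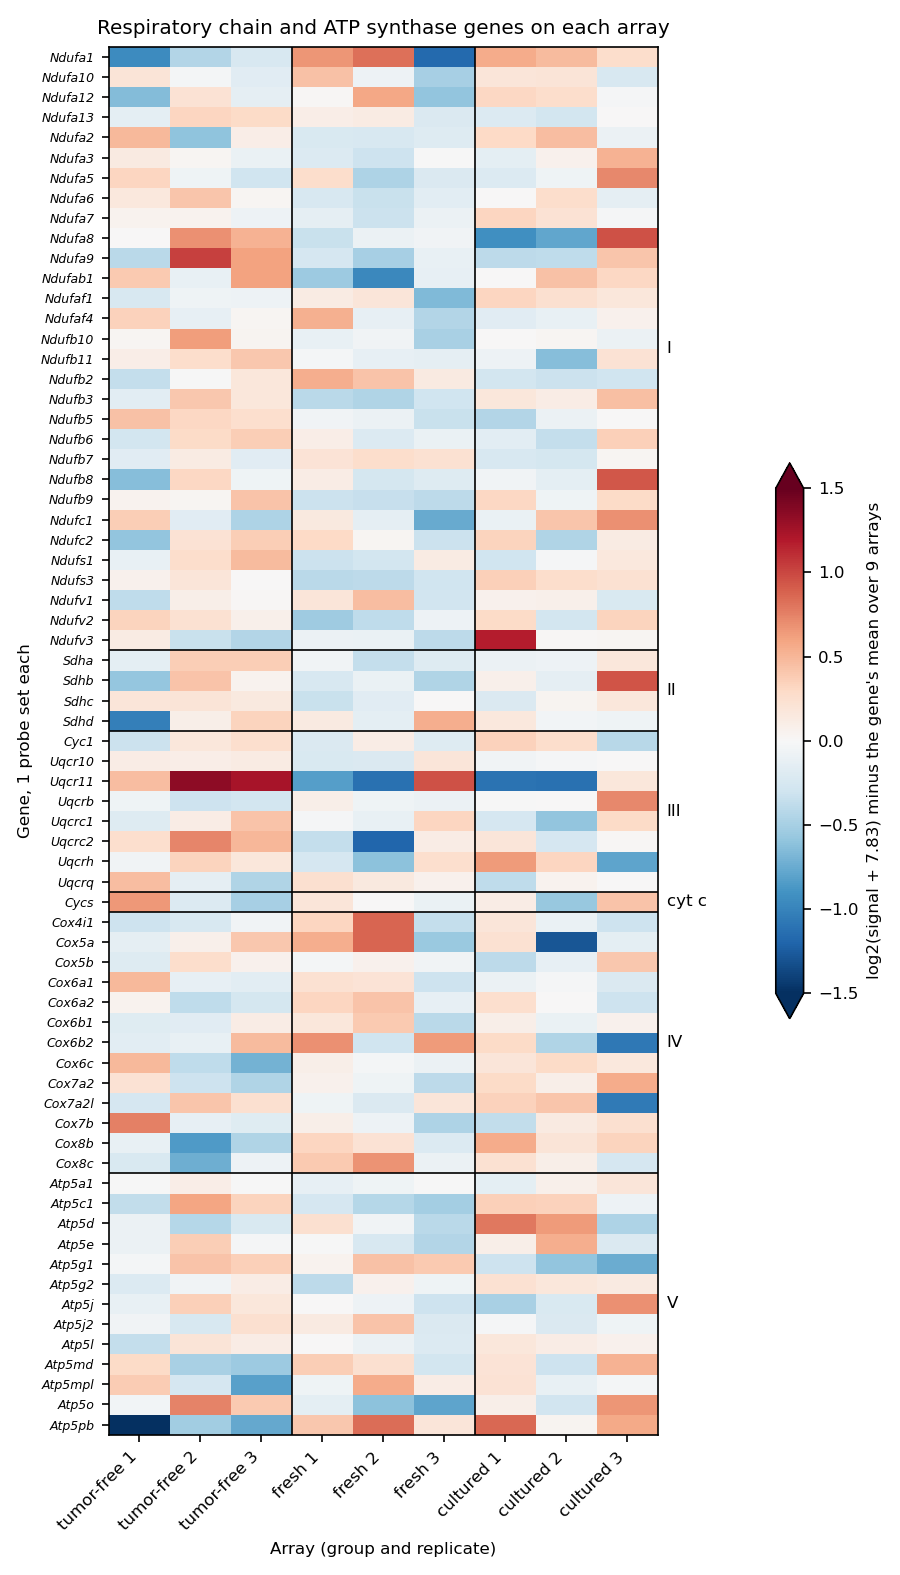
Each row is a member gene (1 probe set each) and each column an array; color gives log2(signal + 7.83) minus the gene's mean over the 9 arrays, and black lines separate groups and complexes. Fresh 3 has the most rows below their mean (16 of 69 above it) and cultured 3 the most above it (45 of 69), and rows of the same complex do not all share a pattern.

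Single arrays shifted the set as a whole. The median deviation of the 69 member genes from their own means was -0.058, 0.091 and 0.059 on tumor-free 1, 2 and 3. On fresh 1, 2 and 3 it was 0.0033, -0.086 and -0.19, and on cultured 1, 2 and 3 it was 0.086, -0.013 and 0.12. Fresh 3 was thus the lowest array and cultured 3 the highest, and both are arrays that stood apart from their group. On fresh 3 the same median of all genes tested was also low, at -0.13. The pooled SD of these array values within groups was 0.082, beside group medians of -0.090, 0.15 and 0.013 for the 3 comparisons.

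Between fresh and tumor-free cells, more members were lower than higher in the fresh cells, while most complex IV members were higher. Of the 69 member genes, 41 had a negative and 28 a positive fold change (59.4% negative against 50.8% of all genes tested), and the median was -0.090 against -0.012 over all genes tested. The groups did not overlap for 15 of 83 member probe sets that were lower in fresh cells, or 18.1% against a background of 13.1%, and for 3 that were higher, or 3.61% against 9.34%. In complex I, 21 of 30 genes were negative with a median of -0.19, and 11 of the 30 did not overlap in the lower direction. Complexes II and III had medians of -0.29 and -0.17 with 3 of 4 and 6 of 8 genes negative, complex V had a median of -0.075 with 7 of 13 negative, and complex IV had a median of 0.17 with 9 of 13 positive. The lean and the complexes varied with the arrays used. The member median was -0.013 within the high spike-in class, -0.24 within the low class and -0.15 without the 3 arrays that stood apart. Within the low class complex IV turned to -0.15 with 8 of 13 genes negative and complex III to 0.022, and within the high class complex II turned to 0.17 and complex V to 0.034. Complex I stayed negative in both, at -0.18 and -0.40. None of these counts is a test, and the difference between complexes was not tested.

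Between cultured and fresh cells the lean was the other way. Of the 69 member genes, 43 were positive and 26 negative, and the median was 0.15 against 0.021 over all genes tested. Groups did not overlap for 14 of 83 member probe sets that were higher in cultured cells, or 16.9% against a background of 13.4%, and for 4 that were lower, or 4.82% against 8.81%. Complex I had a median of 0.24 with 21 of 30 genes positive and 8 of 30 not overlapping in the higher direction, complex II 0.19, complex III 0.11, complex V 0.12 with 10 of 13 positive, and complex IV -0.064 with 9 of 13 negative. This lean varied with the arrays used. Without the 3 arrays that stood apart the member median was -0.010 and that of complex I -0.0021. Within the low spike-in class, where fresh 3 alone stands against cultured 3 alone, these medians were 0.35 and 0.44. In that class complex IV turned to 0.24 with 4 of 13 genes negative, and complex III turned to -0.13 with 7 of 8 negative. Leaving out cultured 3 alone brought the member median to 0.032.

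Between cultured cells of tumor-bearing mice and cells of tumor-free mice the member median lay close to 0. It was 0.013 against 0.033 over all genes tested, with 36 genes positive and 33 negative, and complex medians lay between -0.11 (complex III) and 0.096 (complex IV). Groups did not overlap for 8 of 83 member probe sets in the higher direction, or 9.64% against a background of 10.3%, and for 5 in the lower, or 6.02% against 8.20%. These shares were near or below the background.

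**Figure D2:**
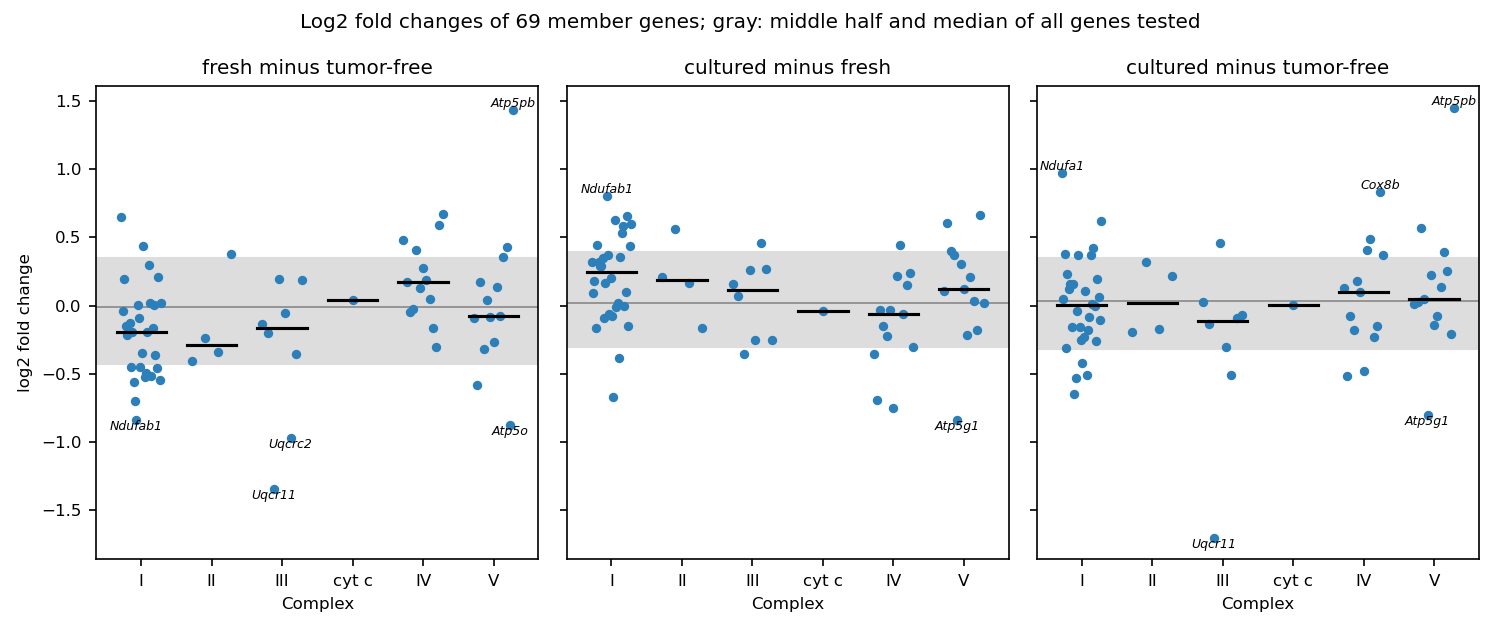
Log2 fold changes (y axis) of the 69 tested member genes by complex (x axis) in the 3 comparisons; blue points are genes, black bars complex medians, and the gray band and line the interquartile range and median of all genes tested. Complex I lies mostly below 0 in fresh minus tumor-free cells (median -0.19) and mostly above 0 in cultured minus fresh cells (0.24), and most members stay inside the gray band.

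In complex I, several subunits of the arm that faces the matrix gave a mixed picture. Ndufs3 had signals of 206, 225 and 199 on the tumor-free arrays and 147, 148 and 158 on the fresh arrays. Its cultured arrays read 255, 238 and 232. All 3 fresh arrays lay below all others and all 3 cultured arrays above all others. Its fold changes were -0.46, 0.65 and 0.20 (SE 0.21), with 95% intervals of -0.91 to -0.0011, 0.20 to 1.11 and -0.26 to 0.65 and limma adjusted p of 0.298, 0.132 and 0.715. Ndufv2 holds an iron-sulfur cluster next to the NADH site. It read 251, 233 and 209 in tumor-free, 134, 149.8 and 187 in fresh and 242, 161 and 249.99 in cultured cells. Fresh arrays were again the lowest 3 against tumor-free, with fold changes of -0.54, 0.44 and -0.10 (SE 0.25), but a further tested probe set of this gene gave 0.14, -0.22 and -0.080. Ndufv1, the flavoprotein that binds NADH, had fold changes of 0.21, -0.15 and 0.063, and Ndufs1, the largest iron-sulfur subunit, -0.36, 0.10 and -0.26. Ndufv3, a small subunit beside them, read 222, 95.2 and 96.1 on the cultured arrays against 87.9, 86.9 and 69.9 on the fresh and 103, 73.0 and 67.5 on the tumor-free arrays. Cultured 1 was far above all other arrays, and the fold change over fresh cells was 0.60 (SE 0.34).

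The acyl carrier protein Ndufab1, which serves mitochondrial fatty acid synthesis as well as complex I, had the largest fold changes of complex I in both comparisons that involve fresh cells. It read 155, 106 and 180.3 on the tumor-free, 76.8, 55.5 and 105 on the fresh and 116, 160.2 and 146 on the cultured arrays. Fresh arrays were below both other groups without overlap, and tumor-free and cultured cells covered a common range. The fold changes were -0.84, 0.80 and -0.040 (SE 0.30), with intervals of -1.496 to -0.18 and 0.15 to 1.46 for the comparisons that involve fresh cells and limma adjusted p of 0.187 and 0.201. Without the 3 arrays that stood apart, its fold change between fresh and tumor-free cells was -1.0003 and passed the threshold of limma. In that fit 24.7% of all probe sets tested passed.

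Some small accessory subunits of complex I showed the same order of groups at lower size. Ndufb3 read 168, 252 and 214 in tumor-free, 141, 136 and 152 in fresh and 213, 205 and 261 in cultured cells, and Ndufb9 read 144, 141 and 189 in tumor-free, 109.8, 108 and 104 in fresh and 174, 133 and 171 in cultured cells. For both, every fresh array lay below every array of the other groups. Fold changes were -0.52, 0.63 and 0.10 for Ndufb3 (SE 0.24) and -0.52, 0.53 and 0.013 for Ndufb9 (SE 0.23), with limma adjusted p of 0.295 and 0.294 against tumor-free cells. Fresh arrays also lay below all tumor-free arrays for Ndufb5 (-0.49), Ndufb10 (-0.45), Ndufb11 (-0.35), Ndufa6 (-0.45), Ndufa7 (-0.19) and Ndufa8 (-0.56), where the values in brackets are fold changes between fresh and tumor-free cells. Cultured arrays lay above all fresh arrays for Ndufa2 (0.44), Ndufa6 (0.29) and Ndufa7 (0.35), whereas Ndufb5 stayed low after culture, at 452, 581 and 618 against 837, 767 and 734 in tumor-free cells (-0.51, interval -1.005 to -0.0074). Ndufc1, a membrane-arm subunit, had fold changes of -0.16, 0.58 and 0.42.

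Not all complex I genes followed this order. Ndufb2 read 353, 454 and 513 in tumor-free, 666, 618 and 500.3 in fresh and 374, 364 and 369 in cultured cells, so that cultured arrays lay below all fresh arrays. Its fold changes were 0.43, -0.67 and -0.23 (SE 0.23, limma adjusted p 0.363, 0.173 and 0.708), and its other tested probe set gave -0.20, -0.52 and -0.72. Ndufb7, a subunit on the intermembrane side, was likewise highest in fresh cells, with 774, 809 and 787 against 598, 735 and 595 in tumor-free and 570.3, 558 and 686 in cultured cells and fold changes of 0.30, -0.39 and -0.085. Ndufa1, an X-linked subunit needed for assembly of the membrane arm, read 25.3, 39.2 and 46.2 in tumor-free, 93.5, 105 and 20.7 in fresh and 85.8, 81.1 and 69.1 in cultured cells. Fresh 1 and 2 were the highest arrays and fresh 3 the lowest of all 9. The fold changes were 0.65, 0.32 and 0.98 (SE 0.47), and the interval of the last, -0.064 to 2.02, held 0 although groups did not overlap.

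For Ndufa8 and Ndufa9 the cultured group was split. Ndufa8 read 54.5, 60.7 and 219 on cultured 1, 2 and 3 against 85.4, 103 and 106 on the fresh and 110.1, 181 and 161 on the tumor-free arrays, and cultured 3 was the highest of all 9 arrays while cultured 1 and 2 were the lowest. Ndufa9, a subunit at the junction of both arms, read 139, 139.8 and 249 in cultured, 153, 128 and 171 in fresh and 138, 385 and 285 in tumor-free cells, with tumor-free 1 near the fresh arrays. Fold changes were -0.56, -0.089 and -0.65 for Ndufa8 (SE 0.44) and -0.70, 0.17 and -0.53 for Ndufa9 (SE 0.37). The remaining tested complex I genes had fold changes within 0.5 of 0 in all 3 comparisons, among them Ndufa13 (-0.15, -0.16 and -0.31), Ndufa12 (0.20, 0.18 and 0.38), Ndufb8 (0.021, 0.35 and 0.37), Ndufa5 (-0.13, 0.29 and 0.16), Ndufa10, Ndufb6 and Ndufc2, and the assembly factors Ndufaf1 (0.0048, 0.37 and 0.37) and Ndufaf4 (-0.091, -0.064 and -0.15). Ndufs4, a subunit that was not tested, was dim, at 3.04 to 25.9 over the 9 arrays.

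Complex II, succinate dehydrogenase, links the chain to the citric acid cycle. Its catalytic flavoprotein Sdha read 39.4, 59.6 and 59.5 in tumor-free, 42.2, 32.8 and 37.8 in fresh and 41.4, 41.6 and 50.9 in cultured cells, with fold changes of -0.40, 0.21 and -0.20 (SE 0.27). The membrane anchor Sdhc read 277, 279 and 269 in tumor-free, 190.4, 214 and 244 in fresh and 207, 251 and 274 in cultured cells, and it alone in this complex had fresh arrays wholly below tumor-free arrays (-0.34, interval -0.83 to 0.14, limma adjusted p 0.443). The iron-sulfur subunit Sdhb had fold changes of -0.24, 0.56 and 0.32 and the other anchor Sdhd 0.38, -0.16 and 0.22. For Sdhd the positive value against tumor-free cells rested on tumor-free 1, which read 201 against 445 and 528 on its pair, and without that array it was -0.032. Cultured 3 did the like for Sdhb: it read 458 against 247 and 214, and without it the value against tumor-free cells was -6e-04.

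Complex III held the member with the lowest fold change. Uqcr11, a small subunit, read 40.9, 82.0 and 75.1 on the tumor-free, 12.2, 8.42 and 60.5 on the fresh and 8.60, 8.40 and 31.7 on the cultured arrays. All tumor-free arrays lay above all cultured arrays, but fresh 3 lay inside the tumor-free range while fresh 1 and 2 were close to the added offset of 7.83. Fold changes were -1.34, -0.36 and -1.70 (SE 0.57), with intervals of -2.59 to -0.097, -1.60 to 0.89 and -2.95 to -0.45 and limma adjusted p of 0.263, 0.828 and 0.195. Without fresh 3 alone the value between cultured and fresh cells turned to 0.28. Without the 3 arrays that stood apart, the value between fresh and tumor-free cells was -2.26 and passed the threshold of limma. So did 24.7% of all probe sets tested in that fit. Uqcrc2, a core protein of the matrix side, read 278, 392 and 331 in tumor-free, 179.6, 97.6 and 252 in fresh and 266, 193 and 236 in cultured cells, so that neither fresh nor cultured arrays overlapped with tumor-free arrays. Fold changes were -0.97, 0.46 and -0.51 (SE 0.33; intervals -1.69 to -0.25, -0.26 to 1.18 and -1.23 to 0.21; limma adjusted p 0.167, 0.550 and 0.535). The other core protein Uqcrc1 did not share this, with fold changes of -0.051, -0.25 and -0.30.

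The other complex III genes had smaller fold changes. Uqcrb, a subunit that touches the quinone site, had fold changes of 0.20, 0.26 and 0.46, and all cultured arrays lay above all tumor-free arrays. Uqcrq gave 0.19, -0.26 and -0.068, Uqcrh, the hinge protein that docks cytochrome c1 with cytochrome c, -0.36, 0.27 and -0.089, Uqcr10 -0.20, 0.068 and -0.14, and Cyc1, cytochrome c1 itself, -0.13, 0.16 and 0.030. Cycs, the mobile electron carrier cytochrome c and also a trigger of apoptosis once released, read 67.8, 33.8 and 26.4 in tumor-free, 46.5, 40.6 and 37.0 in fresh and 44.0, 24.6 and 56.8 in cultured cells. Its groups overlapped throughout. The fold changes were 0.044, -0.039 and 0.0049 (SE 0.37), and the intervals of -0.77 to 0.86, -0.86 to 0.78 and -0.81 to 0.82 leave room for changes of up to about 0.86 on the log2 scale in either direction.

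Complex IV, cytochrome c oxidase, had a median above 0 in fresh against tumor-free cells when all arrays were used (0.17), but -0.15 within the low spike-in class and 0.015 without fresh 2. Several of its highest values came from isoforms known from other tissues. Cox8b, an isoform of heart and skeletal muscle, read 67.3, 37.2 and 51.9 in tumor-free, 94.3, 87.0 and 63.1 in fresh and 112, 85.2 and 94.5 in cultured cells, and all cultured arrays lay above all tumor-free arrays. Its fold changes were 0.59, 0.24 and 0.83 (SE 0.28), the last with an interval of 0.21 to 1.45 and a limma adjusted p of 0.202. Cox8c, an isoform of testis, read 336, 234 and 372 in tumor-free, 520.2, 632 and 371 in fresh and 464, 419.7 and 330.3 in cultured cells, with fold changes of 0.67, -0.30 and 0.37 (SE 0.28) and fresh 3 inside the tumor-free range. The other probe sets of Cox8b and Cox8c were dim and not tested. They read 6.35 to 23.26 for Cox8b and 1.25 to 5.26 for Cox8c over all arrays. Whether the brighter probe sets measure these isoforms was not tested. Cox6a2, the muscle isoform of subunit VIa, was dim, at 10.3 to 16.6 in tumor-free, 13.9 to 23.8 in fresh and 11.2 to 20.3 in cultured cells, with fold changes of 0.41, -0.23 and 0.18. On a list of 12 striated muscle markers, 6 had a tested probe set, and 0 of these were called by limma in fresh against tumor-free cells, with 0 at an unadjusted p below 0.05; 5 of the 6 had a positive fold change, with a median of 0.19.

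The common subunits of complex IV gave smaller or uneven values. Cox4i1, the subunit that carries regulation by ATP, read 48.8, 51.2 and 59.4 in tumor-free, 79.3, 120.2 and 46.9 in fresh and 71.5, 57.5 and 48.6 in cultured cells, with fresh 3 the lowest of all 9 arrays and fresh 1 and 2 the highest. The brighter probe set had fold changes of 0.48, -0.35 and 0.13 (SE 0.33), but a further tested probe set of the gene gave -0.56, 0.077 and -0.49, so the probe sets disagreed in sign throughout. Cox5a gave 0.17, -0.69 and -0.52 and Cox5b, which binds zinc, -0.047, -0.031 and -0.078. Cox6c read 1252 to 1369 in cultured and 1059.6 to 1189.9 in fresh cells without overlap, at fold changes of 0.19, 0.22 and 0.41, and Cox7a2 had fold changes of 0.048, 0.44 and 0.49, also with cultured arrays above all fresh arrays. Cox6b2, a testis isoform, gave 0.27, -0.75 and -0.48, opposite in sign to its other probe set in all comparisons (-0.18, 0.63 and 0.44). Cox6a1, Cox6b1, Cox7b and Cox7a2l, a factor that joins complexes III and IV, had fold changes of at most 0.30 in size, the largest being -0.30 for Cox7b between fresh and tumor-free cells. Cox7a1 and Cox8a were dim and not tested, with 3.46 to 13.5 for Cox7a1 and 2.38 to 22.7 for Cox8a.

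ATP synthase held the member with the highest fold change. Atp5pb, subunit b of the stalk that keeps the catalytic head from turning, read 10.2, 30.3 and 24.1 on the tumor-free, 64.2, 89.3 and 53.9 on the fresh and 91.5, 48.3 and 72.8 on the cultured arrays. Every tumor-free array lay below every array of tumor-bearing mice. Fold changes were 1.43, 0.019 and 1.45 (SE 0.36), with intervals of 0.64 to 2.23, -0.78 to 0.82 and 0.65 to 2.25 and limma adjusted p of 0.0783, 0.987 and 0.0900, the lowest of any member for the comparisons with tumor-free cells. Without the 3 arrays that stood apart, the value between fresh and tumor-free cells was 1.26 and passed the threshold of limma. So did 24.7% of all probe sets tested in that fit. Within the high spike-in class the value of Atp5pb was 2.22. There tumor-free 1 alone, which read 10.2 and so lay near the offset, stands for the tumor-free group. Atp5o, the oligomycin sensitivity conferral protein that ties this stalk to the head, ran the opposite way, at 133, 235 and 183 in tumor-free, 124, 87.6 and 76.6 in fresh and 147, 112 and 222 in cultured cells. Its fold changes were -0.87, 0.67 and -0.21 (SE 0.32), with an interval of -1.58 to -0.17 and a limma adjusted p of 0.201 for fresh against tumor-free cells, and fresh arrays did not overlap with tumor-free arrays. Atp5j, another stalk subunit, gave -0.26, 0.12 and -0.14.

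**Figure D3:**
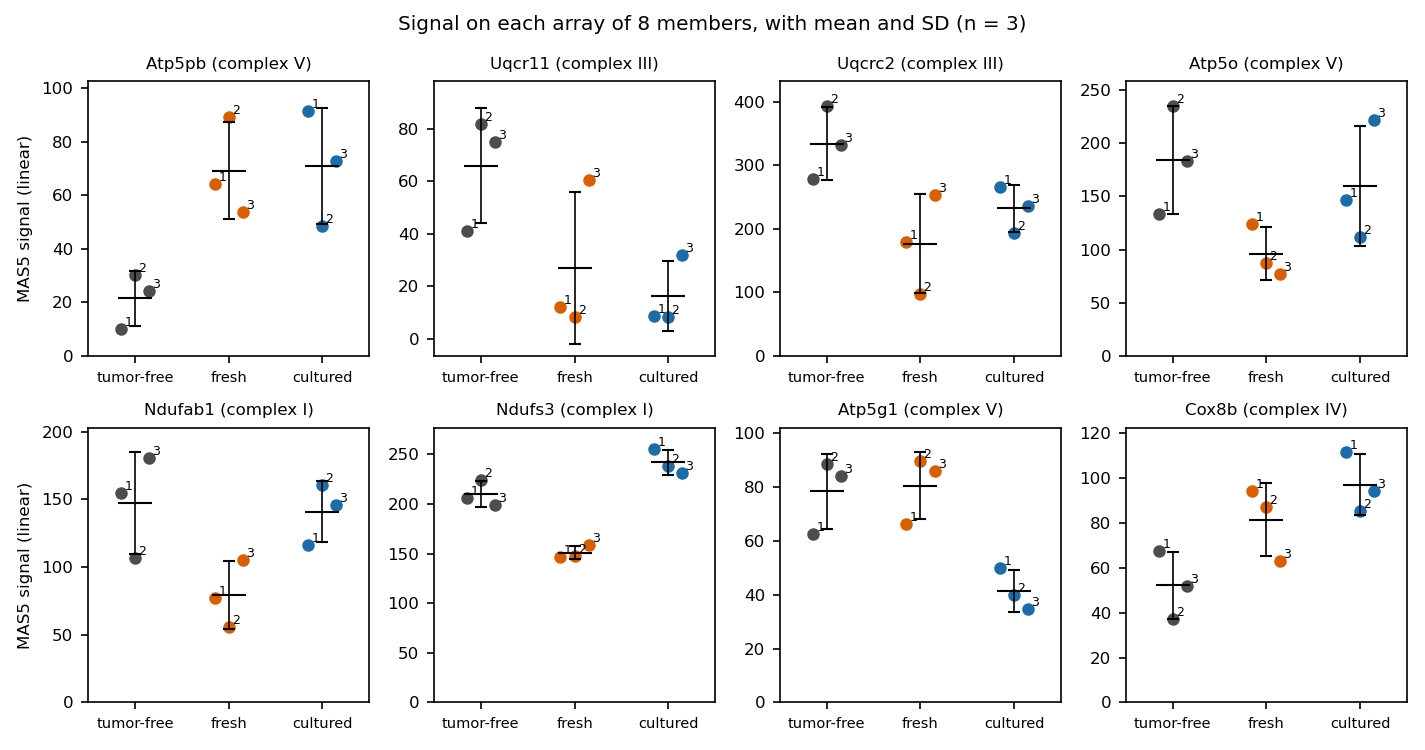
MAS5 signal (y axis, linear) of 8 members on each array by group (x axis); points carry the replicate number, horizontal lines are group means and error bars the SD (n = 3). Atp5pb reads 10.2 to 30.3 in tumor-free cells and at least 48.3 elsewhere, Ndufs3 is lowest in fresh and highest in cultured cells, and fresh 3 departs from fresh 1 and 2 for Uqcr11.

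The catalytic head and rotor of ATP synthase varied by subunit. Atp5a1, the alpha subunit of the head, read 679.7 to 733 in tumor-free, 628 to 684 in fresh and 618 to 779 in cultured cells, with fold changes of -0.090, 0.10 and 0.014. Atp5c1, the gamma subunit that turns inside the head, read 329, 649 and 540.1 in tumor-free, 357, 316 and 299 in fresh and 551, 545 and 407 in cultured cells. Cultured arrays lay above all fresh arrays, whereas tumor-free 1 lay within the fresh range. For Atp5c1 the fold changes were -0.58, 0.61 and 0.025 (SE 0.28), and its further probe set gave -0.20, 0.40 and 0.20. Atp5d, the delta subunit of the rotor, had fold changes of 0.17, 0.40 and 0.57, and Atp5e, the epsilon subunit, -0.32, 0.37 and 0.047.

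Of the genes for the c-ring, through which the protons pass, Atp5g1 was low after culture. It read 62.4, 88.6 and 84.0 in tumor-free, 66.1, 89.6 and 85.9 in fresh and 50.05, 39.7 and 34.8 in cultured cells, so that the cultured arrays lay below all others. Fold changes were 0.040, -0.84 and -0.80 (SE 0.26), with intervals of -1.43 to -0.26 and -1.39 to -0.22 for the comparisons with cultured cells and limma adjusted p of 0.132 and 0.193. Its other tested probe set gave 0.39, -0.064 and 0.32 and did not share the low value. Atp5g2, which encodes the same mature protein from another gene, had fold changes of -0.085, 0.31 and 0.22. The small membrane subunits Atp5md and Atp5mpl, which help ATP synthase form dimers or stay assembled, gave 0.36, 0.032 and 0.39 and 0.43, -0.18 and 0.25, while Atp5l and Atp5j2, subunits g and f, gave -0.075, 0.21 and 0.13 and 0.14, -0.21 and -0.077. Atp5k, subunit e, was not tested and read 5.52 to 46.8.

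Where several probe sets measured a member, they often disagreed. Of 11 member genes with more than 1 tested probe set, 7, 6 and 3 had opposite signs in the 3 comparisons. Between fresh and tumor-free cells these were Atp5g2, Atp5l, Cox4i1, Cox6b2, Ndufa3, Ndufb2 and Ndufv2, with values for example of -0.085 and 0.64 for Atp5g2, -0.075 and 0.13 for Atp5l, and -0.20 and 0.67 for Ndufa3. Between cultured and fresh cells Atp5d also split, at 0.40 and -0.31. Of the 101 member probe sets 64 carry no suffix letter in their name; such a letter marks probes that can match several sequences or that fail a design rule, and retrotransposed copies of respiratory chain genes are common in the mouse genome. The median of the members did not turn in any comparison with probe sets that carry no suffix letter, at -0.091, 0.10 and 0.0049.

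Calls among the members came and went with the arrays used. Within the high class, 2, 4 and 2 member probe sets were called by limma in the 3 comparisons, against a background of 4.73%, 12.1% and 5.11%, and within the low class 10, 18 and 16 were called against 22.6%, 16% and 19.8%. With tumor-free 1, fresh 3 and cultured 3 left out, 16 of 83 member probe sets (19.3%) were called between fresh and tumor-free cells, 7 higher and 9 lower, against a background of 24.7%. The 16 were Cox6c, Cox8c, Cox8b, Atp5d, Atp5md, Atp5pb and Ndufa1 in the higher direction and Uqcrc2, Atp5c1, Ndufa8, Ndufb3, Ndufa9, Ndufab1, Uqcrh, Atp5o and Uqcr11 in the lower. These fits hold 1 or 2 arrays per group, so a close pair sets the spread. Member shares were below the background except between cultured and fresh cells in the low class, where 18 of 83 (21.7%) were called.

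The transcripts of the rest of the mitochondrion and of glycolysis set a frame for these values. Assembly factors of the respiratory chain had 10 tested genes, of which limma called 2 lower in fresh against tumor-free cells, against a background of 0.955%. Foxred1, which helps to assemble complex I, read 108, 149.8 and 159.6 in tumor-free, 49.5, 36.9 and 53.5 in fresh and 126, 98.5 and 125 in cultured cells, and fell by 1.43 (SE 0.26, limma adjusted p 0.0210), then rose by 1.20 in culture (limma adjusted p 0.0359). Coa6, a copper-handling factor for complex IV, read 50.1, 63.2 and 50.9 in tumor-free, 4.31, 19.99 and 13.2 in fresh and 34.8, 45.5 and 48.3 in cultured cells, and fell by 1.69 in fresh cells (SE 0.35, limma adjusted p 0.0332). Between cultured and tumor-free cells the fold changes were -0.23 for Foxred1, whose ranges overlapped, and -0.31 for Coa6, whose ranges did not. The list medians were -0.67, 0.51 and -0.14. The fall of Foxred1 did not pass once fresh 1, fresh 2, tumor-free 2 or tumor-free 3 was dropped (limma adjusted p up to 0.117), and that of Coa6 did not without tumor-free 2, tumor-free 3, fresh 1, fresh 3 or cultured 2 (up to 0.170). The rise of Foxred1 did not pass with any single array other than tumor-free 1 or fresh 3 left out (limma adjusted p up to 0.144), nor after centring on the array median, without the filter, in a fit of the 2 groups or with the replicate block. The fall of Coa6 was also lost without the filter, in a fit of the 2 groups and within the high spike-in class, and that of Foxred1 within the high class.

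Mitochondrial ribosomal proteins, which make the subunits encoded in mitochondrial DNA, had mostly negative fold changes in fresh cells. Of 55 tested, 47 were negative between fresh and tumor-free cells and 43 positive between cultured and fresh cells, with medians of -0.38, 0.28 and 8e-04. By limma 0 were called in the first of these, against 1.9% of all probe sets tested. At an unadjusted p below 0.05 there were 9 of the 55, against 16.7%. In culture against fresh cells 1 of the 55 was called, against 2.69%. This was Mrpl27, which rose by 1.17 (SE 0.27, limma adjusted p 0.0498). The limma adjusted p was up to 0.171 when any single array other than tumor-free 1 was left out. The call was also lost after quantile normalization or centring, at the 5th percentile offset, without the filter or the intensity trend, and with the replicate block. It read 73.3, 136 and 127 in tumor-free, 91.6, 71.4 and 90.1 in fresh and 179, 202 and 218 in cultured cells. Mitochondrial protein import had 17 tested genes with medians of -0.31, 0.23 and 0.12 and 0 called (2, 1 and 1 at an unadjusted p below 0.05), as did the pyruvate dehydrogenase complex (7 tested, medians 0.19, -0.084 and 0.13; 0, 1 and 0 at an unadjusted p below 0.05) and mitochondrial carriers (11 tested, medians 0.020, 0.27 and 0.19; 2, 3 and 1). The citric acid cycle had 14 with medians of -0.37, 0.051 and -0.15 and 0 called (2, 2 and 3 at an unadjusted p below 0.05). For these lists the background at an unadjusted p below 0.05 was 16.7%, 16.3% and 14.1% of all probe sets tested.

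Some fatty acid oxidation and antioxidant genes were called. Of 14 tested fatty acid oxidation genes, 3 were called between cultured and fresh cells, against a background of 2.69%. Acaa2, the thiolase that cuts off acetyl-CoA, read 703, 578 and 713 in fresh and 182, 248 and 173 in cultured cells and fell by 1.70 (SE 0.28, limma adjusted p 0.0107), and it also fell by 1.68 against tumor-free cells at 912, 638 and 476 (limma adjusted p 0.0176). Slc25a20, the carnitine carrier, read 320.2, 319.7 and 269 in fresh and 114, 91.0 and 140.5 in cultured cells and fell by 1.35 (limma adjusted p 0.0156), while Echs1, the hydratase of short chains, read 12.5, 10.1 and 6.52 in fresh and 105, 149.8 and 70.7 in cultured cells and rose by 2.69 (limma adjusted p 0.0127). The fresh signals of Echs1 lie at or near the offset, so the size depends on it: it was 3.20 at the 5th and 1.91 at the 40th percentile offset. Between cultured and fresh cells Acaa2 did not pass without fresh 1 (limma adjusted p 0.0616), Echs1 without fresh 2 or cultured 2 (up to 0.0698) and Slc25a20 without fresh 1, fresh 2, cultured 1 or cultured 2 (up to 0.0815), and against tumor-free cells Acaa2 did not pass without tumor-free 2 or cultured 1 (up to 0.0734) or in a fit of the 2 groups. Sod2, the manganese superoxide dismutase that removes superoxide made by the chain, read 276, 59.2 and 78.1 in tumor-free, 461, 450.0 and 788 in fresh and 589.7, 740.4 and 1018 in cultured cells. It rose by 2.24 in fresh and by 2.71 in cultured cells against tumor-free cells (SE 0.49, limma adjusted p 0.0452 and 0.0229), and tumor-free 1 was far above its pair. The first call was lost with any single array other than tumor-free 1 or cultured 3 left out (limma adjusted p up to 0.186), after centring, without the filter or the intensity trend, in a fit of the 2 groups, within the high class and with a block for spike-in class. The second did not pass without tumor-free 2, tumor-free 3, cultured 1 or cultured 2 (up to 0.112) or in a fit of the 2 groups.

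Glycolysis, the other source of ATP, had mostly positive fold changes in cultured cells. Of 17 tested genes 14 were positive in cultured against fresh cells and 14 in cultured against tumor-free cells, with medians of 0.74 and 1.05 beside 0.15 and 0.013 for the respiratory chain members, and a median of 0.21 in fresh against tumor-free cells. None passed limma's threshold: 0 were called, with 8 and 11 at an unadjusted p below 0.05 in the comparisons with cultured cells and 2 in fresh against tumor-free cells. In the same order, the shares of all probe sets tested below that unadjusted p were 16.3%, 14.1% and 16.7%. Aldoa, an aldolase, had a mean signal of 902 in fresh and 2673 in cultured cells, a fold change of 1.60 (SE 0.38, limma adjusted p 0.0502). Pgk1, which makes ATP in the pathway, had 798 and 2890.3, a fold change of 1.68 (SE 0.54, limma adjusted p 0.140). The difference between glycolysis and the respiratory chain was not tested.

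**Figure D4:**
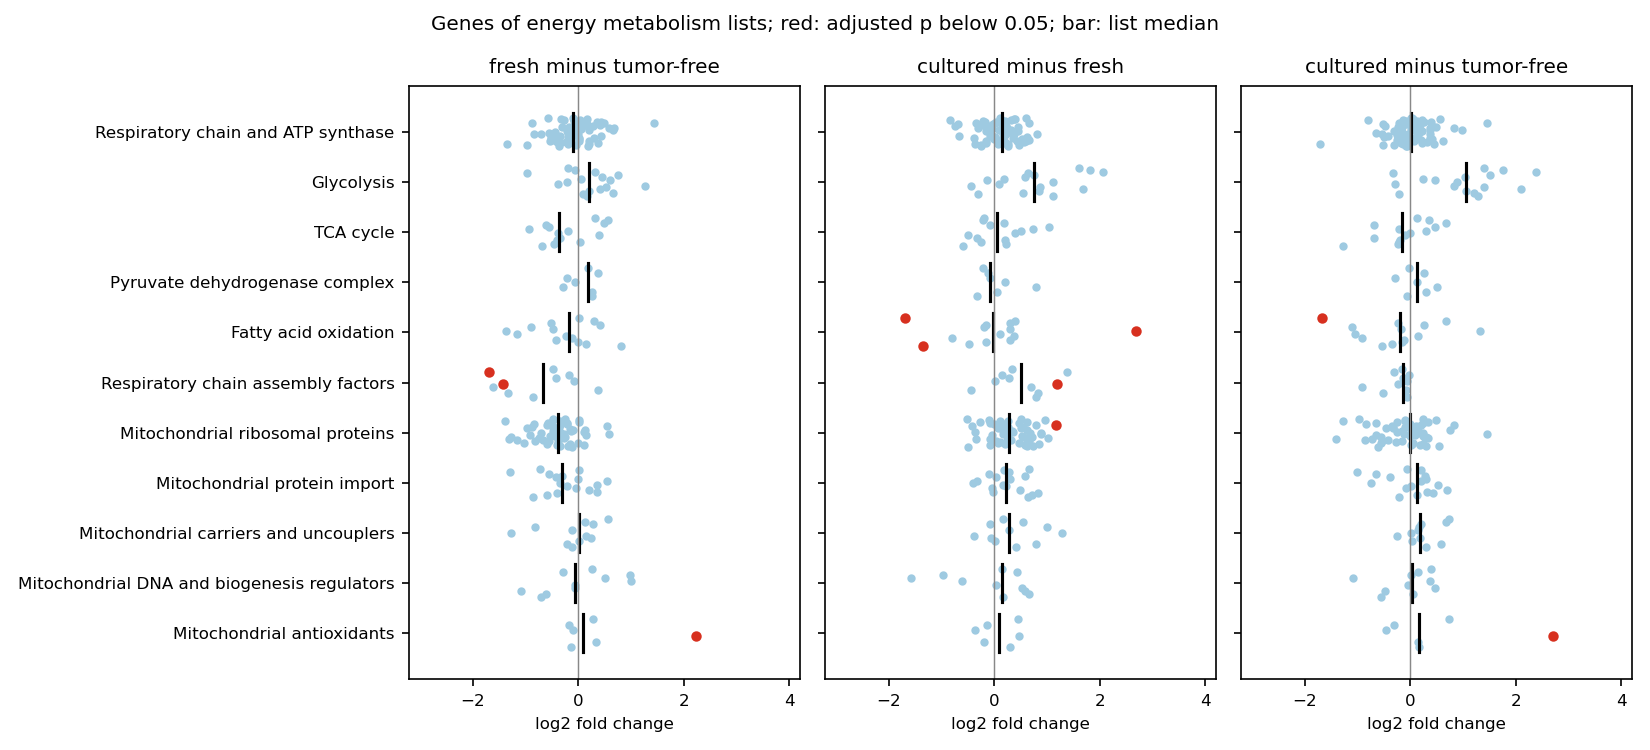
Log2 fold changes (x axis) of the tested genes of each energy metabolism list (rows) in the 3 comparisons; points are genes, black bars list medians, and red points passed the limma threshold (adjusted p below 0.05). The respiratory chain and ATP synthase row has no red point and medians of -0.090, 0.15 and 0.013, with single points from -1.70 to 1.45. Most glycolysis points lie to the right in cultured cells (medians 0.74 and 1.05).

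Genes of GABP and YY1, whose motifs were searched, did not pass the threshold either. No value is given here for the gene of NRF1. Of 16 regulators with a probe set, 10 were tested. Among these 0 were called by limma in any comparison, with 3, 2 and 1 at an unadjusted p below 0.05. The background there was 16.7%, 16.3% and 14.1% of all probe sets tested. Gabpb1, a subunit of GABP, had a mean signal of 66.7 in tumor-free, 139 in fresh and 68.8 in cultured cells and a fold change of 0.99 between fresh and tumor-free cells (SE 0.25, limma adjusted p 0.0840). Its DNA-binding partner Gabpa had -0.28 and Yy1 had -0.71. Member genes with at least 1 of the 3 motifs in a promoter window had a median of -0.19 over 28 genes between fresh and tumor-free cells, and those without had 0.019 over 27 genes. In culture against fresh cells these medians were 0.19 and 0.091. For NRF1 alone they were 0.21 with and 0.14 without the motif. GABP and YY1 had the opposite order there, at 0.076 and 0.17 for GABP and 0.14 and 0.15 for YY1. Between cultured and tumor-free cells the medians with and without any of the motifs were -0.081 and -0.0. These medians are descriptions, and the difference between genes with and without a motif was not tested.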

How the data were processed

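RNA was measured on 9 Affymetrix MG-U74Av2 arrays. Per the submitters' processing notes, the authors deposited MAS5 values, a linear intensity (signal) per probe set and array; no MAS5 version, setting or detection call is given in the sources used here. Every array had a mean near 100.1 once 2% was trimmed at each end, so signals had been scaled before deposit and were used as deposited. Signals were changed to log2(signal + 7.83), the 20th percentile of all values, which understates fold changes of dim genes. Without the 66 control probe sets and the dimmest 30%, 8695 remained. With limma 3.58.1 in R 4.3.3, 1 mean per group was fitted for the 3 groups together (9 arrays; 6 residual degrees of freedom, intensity trend), two-sided, with Benjamini-Hochberg adjustment over the 8695 and a threshold of 0.05; intervals are 95% intervals of that fit. The fit was also run on simulated data drawn independently for each probe set and array. These held no arrays that stand apart, so no conclusion is drawn from them. Precision is limited by having 3 arrays a group.

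Symbols came from the platform annotation (10855 probe sets with 1 symbol, 396 with several, 1237 unlisted), and all 73 member genes were matched by gene ID to RefSeq (GRCm38.p6). A gene is represented by its brightest probe set; levels of different probe sets were not compared. Members and lists were chosen with earlier results of these data known. Members named by rule are those called, the 10 largest rises and falls per comparison, the extremes of each complex and genes whose probe sets disagree; of other lists, called genes and a few chosen after their values were seen (Itgam, Prss2, Aldoa, Pgk1, Gabpb1, Gabpa, Yy1). Alternatives were quantile normalization, centring, other offsets, filters and variance models, fits of 2 groups, a block for replicate number or for spike-in class, each spike-in class alone, single arrays or 3 arrays left out, and other choices of probe set.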

Additional observations from a re-analysis of the deposited data

How the results depend on the processing

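No member probe set was called under any normalization, offset, filter, variance model, 2-group fit, block or single left-out array that was tried; calls appeared only with fewer arrays. Within the high spike-in class 2, 4 and 2 were called in the 3 comparisons, within the low class 10, 18 and 16, and without the 3 arrays that stood apart 16, 5 and 13. Without the 3 arrays, 19.3%, 6.02% and 15.7% of member probe sets were called, below the 24.7%, 15.8% and 20.8% of all probe sets tested. Each spike-in class holds at least 1 group with a single array, so no conclusion is drawn from the counts within a class. The member median between fresh and tumor-free cells was -0.013 within the high class, -0.24 within the low class, -0.15 without the 3 arrays and -0.14 to -0.045 with single arrays left out. Between cultured and fresh cells it was -0.010 within the high class and without the 3 arrays. Both settings hold the same fresh and cultured arrays, so their fold changes in this comparison are a single result. The member median was 0.35 within the low class and 0.032 to 0.18 with single arrays left out. Between cultured and tumor-free cells that last range was -0.058 to 0.030. Of the single members, Cycs turned most often, and the cause was not tested. Between fresh and tumor-free cells it was -0.017 with the class as a block and -0.56 within the high class, where Ndufa9 read 0.027, Atp5c1 0.028 and Atp5mpl -0.14. Cox4i1 was -0.20 and Ndufa1 -0.82 within the low class, and Sdhd -0.22 and Cox7b 0.16 without the 3 arrays. Between cultured and fresh cells Sdhd was 0.060 within the high class and without the 3 arrays, and within the low class Cox5a was 0.41, Cox4i1 0.044, Uqcrc2 -0.092 and Cycs 0.53. Between cultured and tumor-free cells Cycs was -0.060 after quantile normalization, -0.064 after centring, -1e-04 at the 40th percentile offset and -0.056 with the class as a block. Within the high class Ndufa9 was 0.016, Cox6b2 0.083, Atp5md -0.34, Cox6c -0.26, Ndufc1 -0.21, Cox7a2 -0.032, Sdha 0.063 and Cycs -0.88, within the low class Ndufa8 was 0.35 and Atp5d -0.14, and without the 3 arrays Sdhb was -0.27. With single arrays left out, values that turned ran from -0.032 to 0.65 for Sdhd, -0.47 to 5e-04 for Cox7b and -0.19 to 0.38 for Cycs in the first comparison, from -0.78 to 0.28 for Uqcr11, -0.33 to 0.022 for Sdhd and -0.26 to 0.24 for Cycs in the second, and from -6e-04 to 0.55 for Sdhb and -0.23 to 0.34 for Cycs in the third.

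The correlation of deviations ran from -0.20 to 0.26 for samples that share a replicate number and from -0.28 to 0.26 for other samples of different groups. For fresh and cultured samples it was 0.17, 0.029 and 0.26 with the same number and -0.28 to 0.23 with different numbers. With 3 arrays a group these values cannot tell whether replicate numbers pair samples. With the replicate number as a block 0 member probe sets were called, the member medians stayed at -0.090, 0.15 and 0.013, and calls over all probe sets went from 165, 234 and 107 to 200, 258 and 144. With 3 arrays a group, differences under about 0.62 on the log2 scale lay inside the 95% interval of a typical member, and signals near the offset have no clear order.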
